A study of Homo sapiens with 4 samples.

Results

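Zinc finger genes that lie outside the large family arrays of chromosome 19 were examined in HCT116, an established human colorectal carcinoma line. Genes were taken when a probe set of their own carried a symbol made of ZNF, a number and at most 1 letter, and when the RefSeq table placed the gene on an autosome other than 19. This gave 234 of the 17958 genes on the arrays, 226 of them protein coding and 8 pseudogenes. The RefSeq table holds 285 genes of this pattern off chromosome 19, and the remaining 51 were not analysed here as genes, 16 of them because their probe sets name several genes. Of the same symbol pattern, 230 genes lie on chromosome 19 and 12 on the X chromosome.

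The treated group was HCT116 given 1 µM 5-aza-2'-deoxycytidine, a nucleoside drug that replicating cells take up into their DNA, where it traps DNA methyltransferases. The drug was first added 24 hours after seeding and again 48 hours later, and RNA of both groups was isolated at 72 hours of treatment. Each group holds 2 arrays, and the labels do not say whether these came from separate cultures, so p-values measure the spread between these arrays, which may be technical. All 4 arrays carry the same line. Levels below are log2 RMA values, in which 1 unit is a doubling, and array correlations over all probe sets were 0.995 within vehicle, 0.992 within treated and 0.966 to 0.971 across groups.

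Most ZNF genes encode proteins with tandem C2H2 zinc fingers that read DNA sequence. Many carry a KRAB domain, which recruits the corepressor TRIM28 and, through it, histone H3 lysine 9 methyltransferases and heterochromatin proteins, and a prominent role of this class is to silence transposable elements. The genes arose by tandem duplication, so most human KRAB zinc finger genes sit in arrays on chromosome 19 and smaller groups are scattered over other chromosomes. DNA methylation of CpG-rich promoters is a known means by which ZNF genes are silenced in tumors.

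Promoter sequence is shown for a few genes chosen after the results were seen. ZNF140 had the highest rise, and its next neighbour ZNF10 was not called. The neighbouring pair ZNF502 and ZNF501 rose together, and ZNF280A rose from a CpG-poor start. ZNF248 fell, though it was not the largest fall. Each stretch shown is the 250 bases before the most upstream RefSeq start. CpG dinucleotides (CG) are in capitals, since these are the sites that DNA methyltransferases act on.
ZNF140, GRCh38.p14, chr12:133080673-133080922, plus strand: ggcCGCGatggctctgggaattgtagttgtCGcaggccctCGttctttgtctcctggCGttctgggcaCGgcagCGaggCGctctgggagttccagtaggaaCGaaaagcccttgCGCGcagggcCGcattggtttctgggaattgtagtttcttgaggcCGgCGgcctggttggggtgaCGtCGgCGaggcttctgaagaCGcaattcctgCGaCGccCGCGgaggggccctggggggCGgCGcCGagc
ZNF10, GRCh38.p14, chr12:133130377-133130626, plus strand: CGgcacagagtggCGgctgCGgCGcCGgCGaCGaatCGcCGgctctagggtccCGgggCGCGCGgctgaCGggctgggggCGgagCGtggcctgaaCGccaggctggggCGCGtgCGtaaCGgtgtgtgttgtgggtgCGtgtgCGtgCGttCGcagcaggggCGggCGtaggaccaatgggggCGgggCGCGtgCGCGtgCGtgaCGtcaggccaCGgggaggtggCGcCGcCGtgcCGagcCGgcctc
ZNF502, GRCh38.p14, chr3:44712410-44712659, plus strand: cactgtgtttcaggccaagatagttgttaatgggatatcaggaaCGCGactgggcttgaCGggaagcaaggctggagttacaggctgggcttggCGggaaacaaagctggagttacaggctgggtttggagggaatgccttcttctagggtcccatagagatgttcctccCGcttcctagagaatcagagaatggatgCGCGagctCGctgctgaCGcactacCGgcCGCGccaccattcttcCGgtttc
ZNF501, GRCh38.p14, chr3:44729385-44729634, plus strand: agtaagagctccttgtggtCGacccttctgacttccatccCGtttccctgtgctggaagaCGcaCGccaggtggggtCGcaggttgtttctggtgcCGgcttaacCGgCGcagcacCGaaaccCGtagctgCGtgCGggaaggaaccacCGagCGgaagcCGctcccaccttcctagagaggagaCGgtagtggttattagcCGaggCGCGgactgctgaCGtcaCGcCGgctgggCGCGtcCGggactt
ZNF280A, GRCh38.p14, chr22:22520271-22520520, minus strand: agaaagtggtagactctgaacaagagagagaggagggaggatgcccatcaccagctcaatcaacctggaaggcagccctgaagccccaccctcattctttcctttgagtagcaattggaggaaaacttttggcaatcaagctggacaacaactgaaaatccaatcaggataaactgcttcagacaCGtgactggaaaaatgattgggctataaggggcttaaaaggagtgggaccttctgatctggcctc
ZNF248, GRCh38.p14, chr10:37858104-37858353, minus strand: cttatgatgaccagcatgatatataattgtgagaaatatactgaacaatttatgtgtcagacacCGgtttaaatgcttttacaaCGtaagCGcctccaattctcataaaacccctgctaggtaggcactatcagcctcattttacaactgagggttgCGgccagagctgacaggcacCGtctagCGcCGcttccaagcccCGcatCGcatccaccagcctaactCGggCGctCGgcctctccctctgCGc
These stretches hold 25 CpG in ZNF140, 40 in ZNF10, 13 in ZNF502, 25 in ZNF501, 1 in ZNF280A and 13 in ZNF248. ZNF248 has 3 promoter windows, and the stretch shown is not its richest in CpG. The observed to expected CpG ratio of its window is 0.80, while the highest of ZNF248, used further on, is 1.09. That of ZNF140 is 0.95. They are reference sequence, and methylation was not measured in these arrays.

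As a family, the zinc finger genes off chromosome 19 went both ways. A gene is said to rise or fall where its adjusted p was under 0.05 in limma's test, with Benjamini-Hochberg adjustment over all 17958 genes. Of the 234, 39 rose (16.7%) and 44 fell (18.8%), against backgrounds of 12.4% rises and 15.6% falls among all genes tested. The median log2 fold change, treated minus vehicle, was -0.05, beside -0.07 over all genes. At a 2-fold minimum 13 rose and 7 fell, or 5.56% and 2.99%, against 5.05% and 2.62% of all genes. These shares lie near the background. The counts changed with the array left out, as did the backgrounds. A fit without 1 array leaves 1 array in its group, so its spread comes from the other group alone. Whether a call lost in such a fit reflects the array left out or that spread was not tested. Counts from such fits further on are to be read beside the backgrounds given here. With vehicle replicate 1 left out 19 rose and 19 fell, against backgrounds of 7.06% and 6.66%, and with vehicle replicate 2 left out 21 rose and 20 fell, against 7.43% and 6.89%. With treated replicate 1 left out 41 rose and 61 fell, against 14.1% and 18.9%, and with treated replicate 2 left out 40 and 39, against 12.4% and 14.6%. At an adjusted p under 0.01, 22 rose and 19 fell (backgrounds 7.23% and 6.99%). Among those of the 234 above the dimmest part of the array (mean level over 5.52) 27 rose and 49 fell. The backgrounds above that level were 14.1% and 23.1%. This filter removed some of the 234, so the 27 and 49 are not out of 234. Of the genes called with all arrays, 17 rises and 15 falls were called in each of the 4 fits that left out 1 array.

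The chromosome 19 genes had another distribution. There 77 of 230 rose (33.5%) and 5 fell (2.17%), 46 rose and 0 fell by at least 2-fold, and the median log2 fold change was 0.20. Without vehicle replicate 1 the chromosome 19 genes had 59 rises and 0 falls, and with vehicle replicate 2 left out 57 and 0; with treated replicate 1 left out the falls numbered 11. The difference between both sets of zinc finger genes was not tested. Median vehicle levels were 7.21 off chromosome 19 and 6.19 on it. Of the 12 X-linked genes 2 rose and 3 fell.

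**Figure D1:**
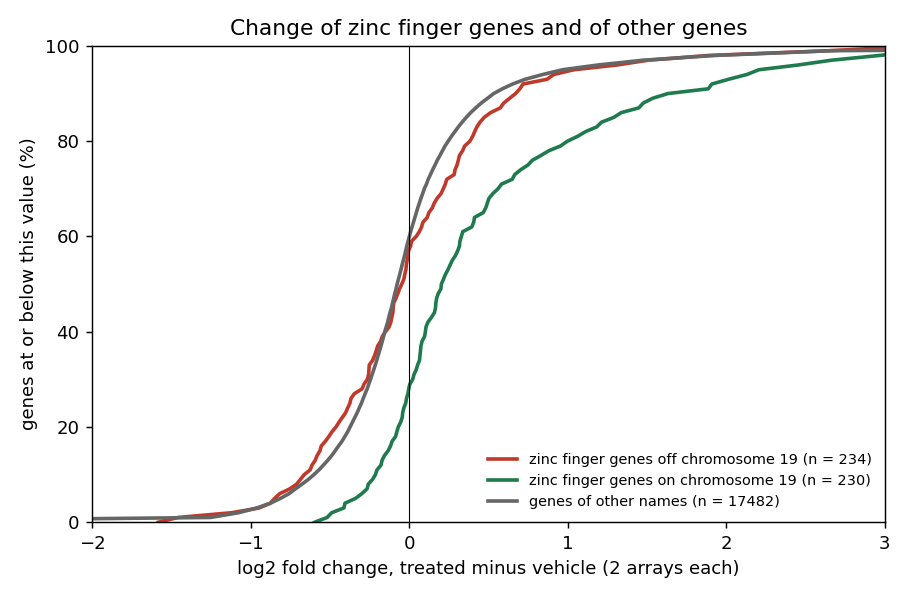
Cumulative share of genes (%) against the log2 fold change, treated minus vehicle, for zinc finger genes off chromosome 19, zinc finger genes on chromosome 19 and genes of other names; values beyond -2 and 3 lie outside the axis. The curve off chromosome 19 runs close to that of the other genes (medians -0.05 and -0.08), while that of chromosome 19 is shifted to higher values (median 0.20).

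Rises off chromosome 19 were more frequent among dim genes and falls among brighter ones. Of 37 genes with a vehicle level under 5, 13 rose and 2 fell (35.1% and 5.41%); among all genes of that level, 16.2% rose and 3.11% fell. Between levels 5 and 7, 12 of 59 rose and 12 fell (20.3% each), while of all 3502 genes of that level 628 rose and 527 fell. Between 7 and 9, 13 of 116 rose and 25 fell (11.2% and 21.6%), beside 10.5% and 25.9% of all genes of that level. At a level of 9 or more, 1 of 22 rose and 5 fell (4.55% and 22.7%), while of all 4858 genes of that level 292 rose and 972 fell. From level 7 upward the shares lie near those of all genes. Without vehicle replicate 1 the dimmest class had 9 rises, and the class from 7 to 9 had 2 rises and 12 falls; leaving out vehicle replicate 2 made these counts 10, 3 and 12. Between levels 5 and 7 both of these fits had 8 rises and 5 falls. Leaving out treated replicate 1 gave 39 falls between 7 and 9. Among all genes of these levels, too, rises and falls were fewer without a vehicle array. Falls between 7 and 9 were more frequent there without treated replicate 1. The vehicle level is itself part of the fold change, so the split and the fold are not independent. RMA usually compresses folds near background, and the table holds no detection calls.

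**Figure D2:**
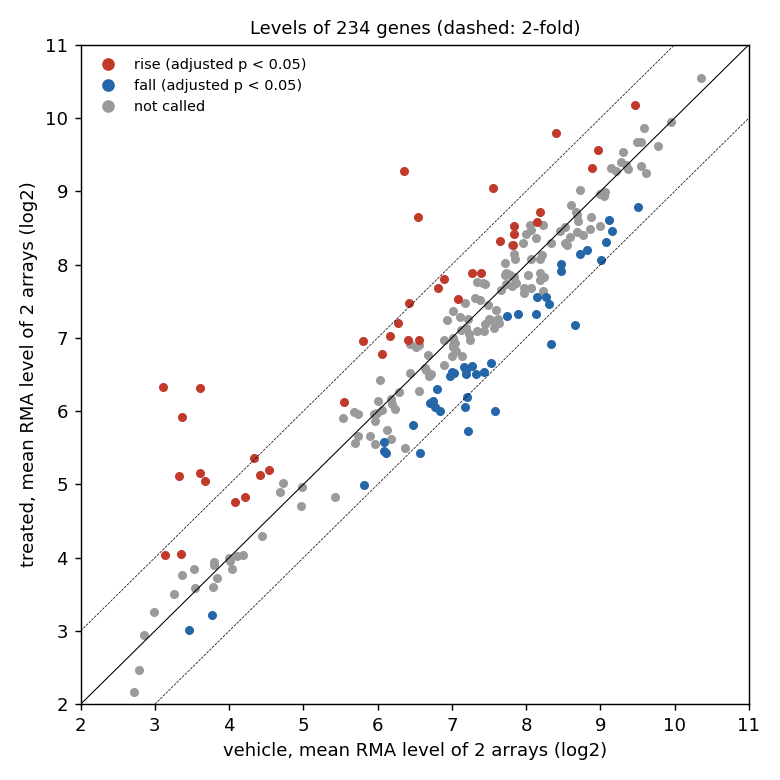
Mean log2 RMA level of 2 treated arrays against that of 2 vehicle arrays, 1 point for each of the 234 genes, coloured by limma's call; dashed lines mark a 2-fold difference. The points farthest above the diagonal start at vehicle levels between 3 and 7, and the falls lie mostly at vehicle levels between 5 and 9.

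The highest rise was of ZNF140, a KRAB repressor gene on chromosome 12. Its level was 2.99 and 3.23 on the vehicle arrays and 6.33 and 6.34 on the treated arrays. The groups are far apart, a 9.33-fold difference (log2 fold change 3.22, SE 0.13, adjusted p = 1.32e-05). ZNF804A on chromosome 2, known as a gene at a schizophrenia risk locus, measured 6.49 and 6.21 in vehicle and 9.29 and 9.28 in treated cells. This is 7.62-fold higher (SE 0.14 on the log2 scale, adjusted p = 2.33e-05). Its relative ZNF804B stayed at 3.52 and 3.55 in vehicle against 3.39 and 3.77 in treated cells and was not called (log2 fold change 0.04, SE 0.15, adjusted p = 0.866).

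ZNF717 on chromosome 3 went from 3.37 and 3.85 to 6.22 and 6.41, a 6.51-fold rise (SE 0.18, adjusted p = 0.000107). ZNF300 on chromosome 5 went from 3.14 and 3.58 to 6.25 and 5.60, a 5.89-fold rise (SE 0.24, adjusted p = 0.000497). Both were dim on each vehicle array and lay well above that on each treated array. ZNF280A on chromosome 22 went from 6.50 and 6.59 to 8.67 and 8.64 (4.32-fold, SE 0.11, adjusted p = 4.55e-05), whereas its neighbour and paralog ZNF280B was at 9.26 and 9.31 in vehicle and 9.41 and 9.40 in treated cells and was not called (adjusted p = 0.493). The nearest tested gene on the other side of ZNF280A, the cancer/testis antigen PRAME, rose by 0.68 on the log2 scale from a mean of 8.99.

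ZNF705A on chromosome 12 measured 3.12 and 3.55 in vehicle and 5.18 and 5.04 in treated cells, a 3.42-fold rise (SE 0.17). It has near-identical copies elsewhere in the genome, probe sequences were not used, and its value is therefore uncertain as to the copy. ZNF334 on chromosome 20 went from 3.49 and 3.85 to 4.73 and 5.37 (2.61-fold, SE 0.23, adjusted p = 0.00536). The remaining 3 of the 10 highest rises, ZNF501, ZNF75A and ZNF597, belong to local runs described further on. These 10 genes were chosen as the highest rises with separate groups, so that their arrays do not overlap follows from the choice. Of the 234 genes 70.1% had arrays that did not overlap between groups, beside 65.8% of all genes. Each of the 10 was called in every fit that left out 1 array.

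The largest fall was of ZNF204P, a pseudogene on chromosome 6, at 7.41 and 7.75 in vehicle and 6.39 and 5.61 in treated cells (3.00-fold lower, SE 0.26, adjusted p = 0.00493). ZNF367 on chromosome 9 fell from 8.75 and 8.57 to 7.07 and 7.26 (2.81-fold lower, SE 0.13, adjusted p = 0.000383). Its nearest tested neighbours SLC35D2 and CDC14B, the second a dual-specificity phosphatase gene, fell too, by 0.47 and by 0.78 on the log2 scale. ZNF678 on chromosome 1 fell from 7.24 and 7.19 to 5.83 and 5.64 (2.79-fold lower, adjusted p = 0.000291). The second, dimmer probe set of ZNF678 measured 6.50 and 6.68 in vehicle and 5.77 and 6.04 in treated cells. ZNF138 on chromosome 7 fell from 8.22 and 8.46 to 7.02 and 6.83 (2.67-fold lower, adjusted p = 0.000595).

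ZNF133 on chromosome 20 fell from 7.23 and 7.17 to 6.11 and 6.27 (2.02-fold lower, adjusted p = 0.00146). ZNF704 on chromosome 8 fell from 9.08 and 8.94 to 8.04 and 8.08 (1.93-fold lower, adjusted p = 0.00178), and ZNF2 on chromosome 2 from 7.41 and 7.46 to 6.69 and 6.38 (1.86-fold lower, adjusted p = 0.0043). The other 3 of the 10 largest falls, ZNF248, ZNF25 and ZNF33A, are neighbours on chromosome 10. These 10 too were chosen with separate groups, and each was called in every fit that left out 1 array. The largest falls were smaller than the largest rises, 3.00-fold against 9.33-fold.

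**Figure D3:**
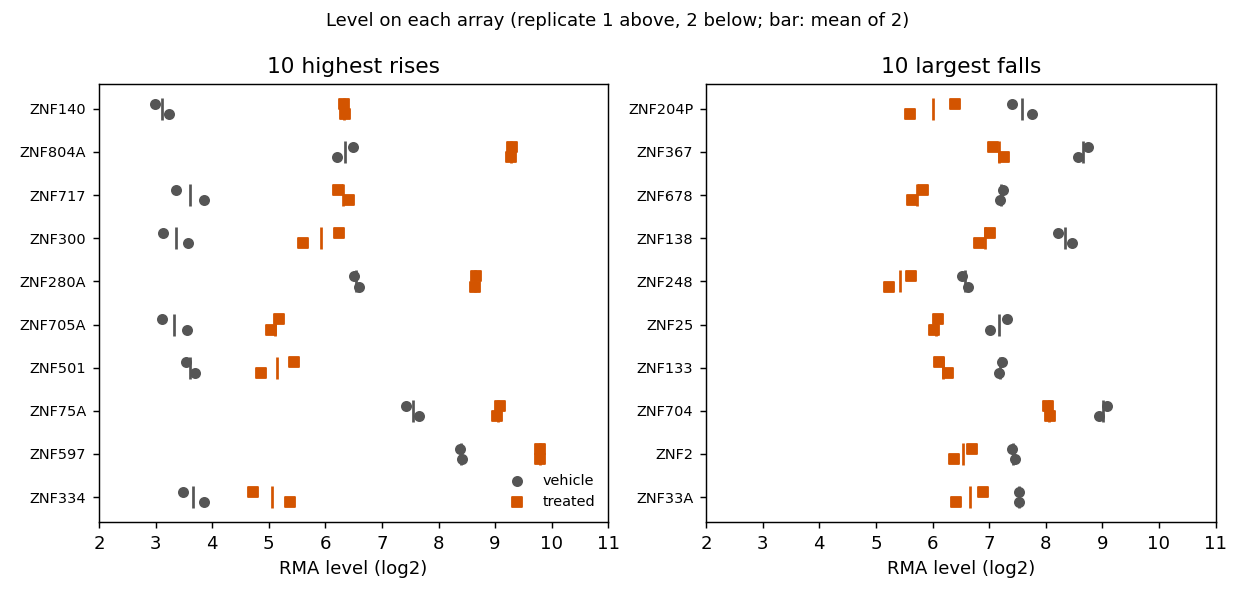
Log2 RMA level on each of the 4 arrays for the 10 highest rises (left) and the 10 largest falls (right); circles are vehicle arrays, squares treated arrays and short bars the mean of 2. The 20 genes were chosen with groups that do not overlap, and 6 of the 10 genes on the left have vehicle levels under 4.

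Chromosomes differed in which direction their zinc finger genes took, though most hold few. Median vehicle levels of these genes were 7.23, 4.53, 7.07, 6.71 and 6.18 on chromosomes 12, 5, 16, 3 and 4. They were 7.81, 7.01, 7.45 and 7.22 on chromosomes 7, 10, 6 and 9. The part of these levels in the directions was not tested. Many of the called genes are also those of the local runs described further on, so the chromosome and run counts share genes. On chromosome 12, 5 of 12 rose and 0 fell (median log2 fold change 0.30), and on chromosome 5, 5 of 11 rose and 0 fell (median 0.29). Chromosome 16, with 30 genes the largest set, had 7 rises and 1 fall, with a median of -0.02. Chromosome 3 had 4 rises and 2 falls among 17 genes, and chromosome 4 had 2 rises and 0 falls among 8. The other genes of these chromosomes did not lean the same way: the share of rises was 12.2% on chromosome 12, 13.5% on chromosome 5 and 10.6% on chromosome 16, with a median log2 fold change between -0.09 and -0.07.

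Falls prevailed on chromosomes 7, 10, 6 and 9. Chromosome 7 had 8 falls and 1 rise among 27 genes (median -0.18), chromosome 10 had 5 falls and 0 rises among 15 (median -0.26), chromosome 6 had 5 falls and 2 rises among 10 (median -0.51), and chromosome 9 had 3 falls and 0 rises among 10 (median -0.35). Among other genes the share of falls was 17.9% on chromosome 7, 18.9% on chromosome 10, 20.1% on chromosome 6 and 15.6% on chromosome 9. On chromosome 8, 2 of 15 rose and 5 fell, beside 12.6% and 14.6% of its other genes. On chromosome 1, 2 of 20 rose and 4 fell, beside 11.7% and 14.8%. On chromosome 2, 1 of 8 rose and 3 fell, beside 10.7% and 18.3%. The remaining 7 chromosomes with such genes held 51 of them, with 8 rises and 8 falls. At an unadjusted p under 0.05 in limma's test, 1 gene was lower on chromosome 12, 0 on chromosome 5 and 1 on chromosome 4, and 1 was higher on chromosome 10 and 0 on chromosome 9. These chromosome counts were not compared by a test. Among the other genes of each chromosome, rises and falls were both fewer in the fits without a vehicle array, given next for the zinc finger genes.

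Without vehicle replicate 1, chromosomes 12, 5 and 16 kept 3, 2 and 3 rises, and chromosomes 7, 10, 6 and 9 had 2, 5, 2 and 2 falls. With vehicle replicate 2 left out the rises numbered 3, 1 and 3, and the falls 3, 4, 2 and 1; chromosome 6 then had as many rises as falls. Chromosome 4 had 1 rise without vehicle replicate 1, and 1 rise and 1 fall without treated replicate 1. Chromosome 1 had no rise with either vehicle array left out, with 1 and 2 falls, and chromosome 8 had 1 rise and 3 falls in both of these fits. Without treated replicate 1 chromosome 5 had 2 rises, chromosome 12 had 1 fall beside 6 rises, chromosome 3 had 5 falls, and chromosome 9 had 5 falls. Without treated replicate 2 chromosome 7 had 5 falls.

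**Figure D4:**
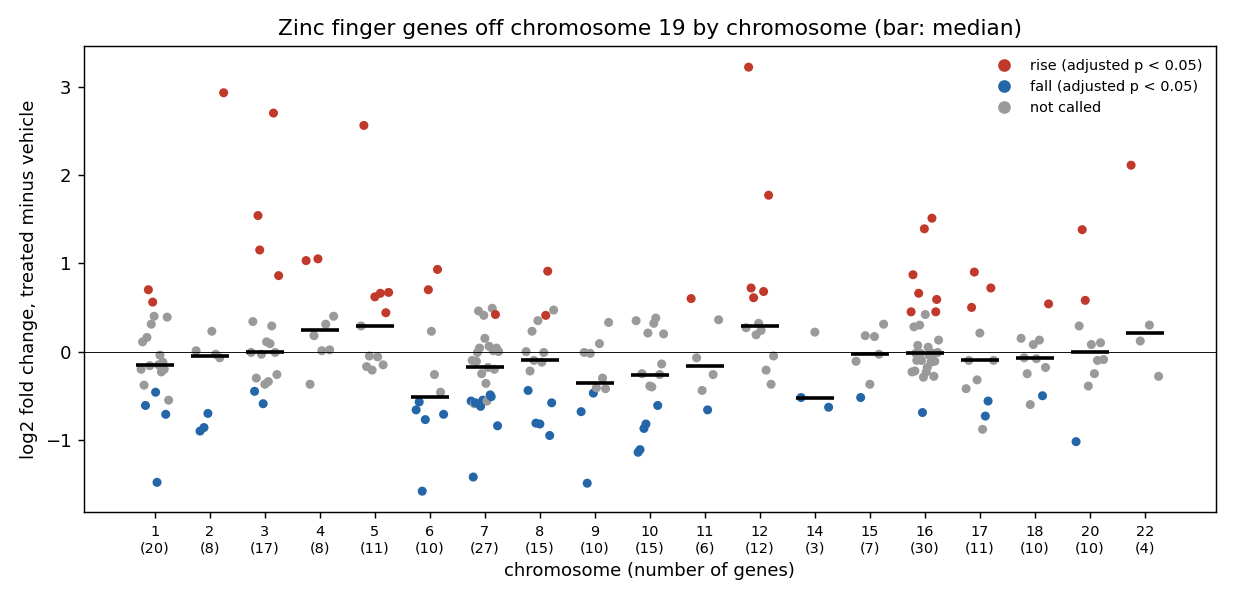
Log2 fold change, treated minus vehicle, of each zinc finger gene by chromosome, coloured by limma's call; bars are medians and the number of genes stands under each chromosome. Chromosomes 5 and 12 have no falls, chromosomes 9 and 10 have no rises, and chromosome 16 combines a median of -0.02 with 7 rises.

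Local runs of zinc finger genes were defined from gene order alone, as at least 3 of these genes with no more than 5 other protein-coding genes between neighbours. There were 18 runs holding 93 genes. In the runs 17 genes rose (18.3%) and 18 fell (19.4%), and outside them 22 of 141 rose (15.6%) and 26 fell (18.4%). Both lie near the shares of the 234 genes, 16.7% rises and 18.8% falls, beside 12.4% and 15.6% of all genes tested. Of the 18 runs, 5 had rises and no falls, 6 had falls and no rises, 3 had both and 4 had no call. Of the 75 pairs of zinc finger genes consecutive within runs, both genes were called in 12, and 10 of these 12 pairs had the same direction. Genes of other names can lie between the genes of a pair. Pairs can share a gene, as ZNF25 does with ZNF248 and with ZNF33A. The same count was not made for other neighbouring genes, and the shared direction was not tested. The runs had 10 rises and 9 falls when vehicle replicate 1 was left out, and 9 and 10 when vehicle replicate 2 was.

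The run on chromosome 10 from ZNF248 to ZNF33B fell nearly throughout. ZNF248 went from 6.52 and 6.62 to 5.62 and 5.24 (2.21-fold lower), ZNF25 from 7.32 and 7.02 to 6.10 and 6.02 (2.15-fold lower), and ZNF33A from 7.53 and 7.53 to 6.90 and 6.42 (1.83-fold lower). ZNF33B, a near-identical relative of ZNF33A, fell 1.76-fold, with adjusted p between 0.00183 and 0.0105 for these 4 genes. The fifth gene, ZNF37A, lies between ZNF33A and ZNF33B and was lower on both treated arrays without being called (8.08 and 8.29 against 7.83 and 7.76, adjusted p = 0.0633). All 4 calls were made in each fit that left out 1 array. By contrast, the other run on chromosome 10, from ZNF487 to ZNF32, had no call, with a median log2 fold change of 0.33.

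Of the 7 genes in the run on chromosome 16 from ZNF205 to ZNF597, 4 rose and 0 fell. ZNF75A went from 7.43 and 7.66 to 9.08 and 9.03 (2.84-fold, SE 0.13, adjusted p = 0.000323). ZNF597, an imprinted gene, went from 8.38 and 8.42 to 9.80 and 9.79 (2.62-fold, SE 0.11, adjusted p = 0.00027). These 2 started brighter than the other high rises. ZNF200 went from 6.67 and 6.94 to 7.69 and 7.67 (1.83-fold), and ZNF174, a SCAN domain gene, from 7.02 and 7.15 to 7.50 and 7.56 (1.36-fold, adjusted p = 0.0311). The call of ZNF174 was lost with either vehicle array left out (adjusted p 0.266 and 0.131) and with treated replicate 2 left out (0.0582). ZNF205, ZNF213 and ZNF263 were not called, with log2 fold changes of 0.28, -0.22 and -0.10. NAA60, next to ZNF597 and an acetyltransferase gene of the same imprinted region, had a log2 fold change of 0.37 (adjusted p = 0.0799).

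The other run on chromosome 16, from ZNF48 to ZNF689, differed. Of its 8 genes ZNF785 rose, from 5.51 and 5.56 to 6.09 and 6.16 (1.50-fold), and ZNF48 fell, from 7.19 and 7.20 to 6.55 and 6.47 (1.61-fold lower). ZNF771, ZNF768, ZNF747, ZNF764, ZNF688 and ZNF689 had log2 fold changes between -0.28 and -0.02 and were not called. The call of ZNF785 was lost without either vehicle array (adjusted p 0.103 and 0.0724) and that of ZNF48 without vehicle replicate 2 (adjusted p = 0.0509).

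The longest run, on chromosome 7 from ZNF786 to ZNF775, had 4 falls and 0 rises among 11 genes. ZNF862 went from 6.77 and 6.92 to 6.05 and 5.95 (1.80-fold lower, adjusted p = 0.00321) and was called in each fit that left out 1 array. ZNF425 (log2 fold change -0.62), ZNF775 (-0.51) and the pseudogene ZNF767P (-0.49) also fell. The second probe set of ZNF425 showed no difference, at 5.33 and 5.40 in vehicle and 5.26 and 5.46 in treated cells, and with the mean of both ZNF425 was not called (log2 fold change -0.31). Of these 3 calls, those of ZNF425 and ZNF767P were lost without vehicle replicate 1 (adjusted p 0.213 and 0.276), and those of ZNF775 and ZNF767P without vehicle replicate 2 (0.238 and 0.108) or treated replicate 2 (0.0688 and 0.111). The call of ZNF425 was also lost without treated replicate 1 and that of ZNF775 without vehicle replicate 1 (adjusted p 0.0685 and 0.0849). ZNF786, ZNF398, ZNF282, ZNF746 and ZNF467 had log2 fold changes between -0.25 and 0.06, ZNF212 of -0.59 and ZNF777 of 0.49, and were not called. Of 6 tested genes of other names within this run, ATP6V0E2, LRRC61 and REPIN1 fell and 0 rose.

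Of the remaining runs, 4 had rises without falls, each among 5 or 6 genes. On chromosome 3, ZNF502 went from 5.80 and 5.79 to 6.96 and 6.94 (2.23-fold, adjusted p = 0.000584) and its neighbour ZNF501 from 3.54 and 3.69 to 5.44 and 4.86 (2.90-fold, adjusted p = 0.00196). ZNF445, a regulator of imprints in the same run, was not called (8.63 and 8.47 against 8.55 and 7.97). With treated replicate 1 left out this run had 2 falls beside 2 rises. Among the tested genes of chromosome 12, ZNF140 stood between ZNF84 and ZNF10, neither of which was called. ZNF10, in which the KRAB domain was first studied as KOX1, was at 2.95 and 3.02 in vehicle and 3.15 and 3.36 in treated cells. ZNF26 and ZNF268 of the same run rose 1.65-fold and 1.53-fold; the first call was lost without vehicle replicate 2 (adjusted p = 0.0685) and the second without either vehicle array (0.0756 and 0.0709).

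On chromosome 4, ZNF595 went from 6.39 and 6.44 to 7.45 and 7.49 (2.07-fold, adjusted p = 0.000944). ZNF141 rose 2.04-fold with more spread, from a mean of 4.33 (SD 0.47, n = 2) to 5.36 (SD 0.49, n = 2), and its call was lost without vehicle replicate 1 (adjusted p = 0.137) or treated replicate 1 (0.0966). In the run on chromosome 5, the 2 tested genes of other names were not called, nor were ZNF354A and ZNF354B (-0.05 and -0.21). ZNF454, ZNF879 and ZNF354C, 3 dim genes consecutive among the zinc finger genes of this run, rose by 0.66, 0.67 and 0.62 on the log2 scale. Their vehicle means were 4.53, 4.08 and 4.21. Of these 3 calls, 1 was made without vehicle replicate 1, 0 without vehicle replicate 2 and 1 without treated replicate 1. On chromosome 7, ZNF107, ZNF138 and ZNF273 are consecutive and fell by 0.56, 1.42 and 0.58; of the 3, only ZNF138 was called with either vehicle array left out.

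**Figure D5:**
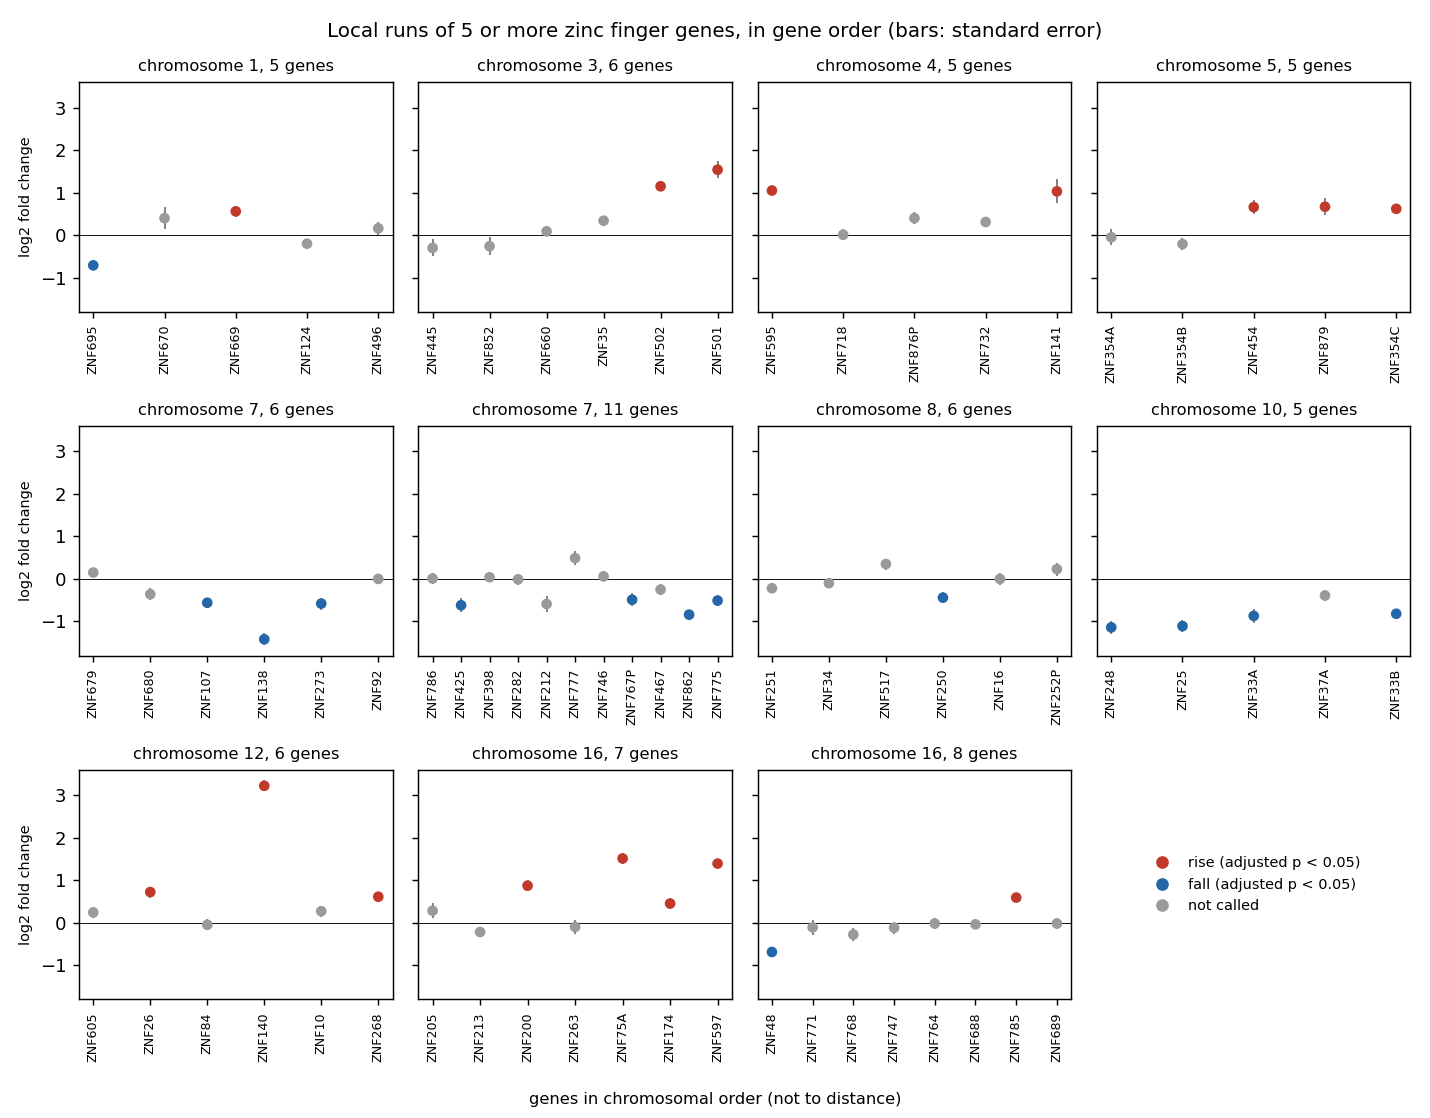
Log2 fold change, treated minus vehicle, with its standard error, of each gene in the 11 runs that hold 5 or more zinc finger genes, in chromosomal order and coloured by limma's call. The run on chromosome 10 lies wholly below 0 (-1.14 to -0.39), whereas on chromosome 12 ZNF140 (3.22) stands between genes that were not called.

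The nearest tested genes on each side of the most changed zinc finger genes were counted too. Only neighbours outside the 234 genes were counted, since ZNF248, ZNF25 and ZNF33A are each other's neighbours and were themselves chosen as falls. Of 13 such neighbours of the 10 highest rises 3 rose and 2 fell, and of 10 such neighbours of the 10 largest falls 3 fell and the others were not called, beside 12.4% rises and 15.6% falls among all genes. GPX3, a secreted glutathione peroxidase gene beside ZNF300, rose from a mean of 4.84 to 8.16, while SMIM3 on the other side fell by 1.01 on the log2 scale.

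Promoter CpG content was available for 186 of the 234 genes. Of the 48 genes without it, 3 rose and 11 fell (6.25% and 22.9%), beside 13.0% and 13.5% of all genes without it. The classes below thus leave out more falls than rises. The ratio of observed to expected CpG was taken in windows of 250 bases before to 50 after each RefSeq start, and the highest window counted for the 45 genes with more than 1. A ratio of at least 0.6 was found for 84.9% of these genes and for 72.4% of all genes with a window. Among the 158 genes at or above 0.6, 31 rose and 25 fell (19.6% and 15.8%), and among the 28 below it 5 rose and 8 fell (17.9% and 28.6%). Of all genes, 12.2% at or above and 12.4% below this ratio rose, and 18.8% and 9.29% fell. The classes differ in level, so these shares are not compared at like levels. Median vehicle levels at or above and below 0.6 were 7.36 and 6.48 for the zinc finger genes, and 8.39 and 4.47 for all genes. In both classes of all genes, rises and falls were fewer without a vehicle array. Both classes of zinc finger genes thus contained rises and falls. ZNF140 had a ratio of 0.95 and ZNF10 of 1.16, while ZNF280A had 0.28 and ZNF705A 0.20. The CpG-rich class had 13 rises and 11 falls without vehicle replicate 1, 15 and 13 when vehicle replicate 2 was left out, and 28 and 39 when treated replicate 1 was. The CpG-poor class had 4 rises in both fits without a vehicle array, with 2 and 3 falls; it had 8 rises without treated replicate 1 and 5 falls without treated replicate 2.

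Of a list of 39 genes of better known function, 8 rose and 4 fell (20.5% and 10.3%), beside 12.4% and 15.6% of all genes. In the fits that left out a vehicle array the list had 4 rises, with 2 falls in the absence of replicate 1 and 1 in the absence of replicate 2; with treated replicate 1 left out it had 9 and 6. Besides ZNF804A and ZNF280A, ZNF703, a gene amplified in luminal breast cancer, rose from 6.98 and 6.80 to 7.61 and 7.99 (1.88-fold, adjusted p = 0.00668). ZNF750, a regulator of epidermal differentiation, rose from 4.43 and 4.39 to 5.18 and 5.07 (1.64-fold, adjusted p = 0.00511). Both were called in each fit that left out 1 array. ZNF143, a transcription factor at many promoters, rose from a mean of 8.97 to 9.56 (1.51-fold, adjusted p = 0.0189). Its close relative ZNF76 fell from 9.47 and 9.54 to 8.66 and 8.92 (1.64-fold lower, adjusted p = 0.00854). The paralogs thus moved in opposite directions. The call of ZNF143 was lost without either vehicle array (adjusted p 0.0872 and 0.122), and that of ZNF76 without vehicle replicate 2 (0.0618).

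ZNF532, a partner of the chromatin reader ZMYND8, rose by 0.54 on the log2 scale, whereas ZNF592 and ZNF687, the other members of that module, had changes of 0.18 and -0.23 and were not called. ZNF335, a subunit of histone H3 lysine 4 methyltransferase complexes, rose by 0.58, and ZNF622, a factor of large ribosomal subunit maturation, by 0.44. In the ZNF385 family, ZNF385B fell from 8.32 and 8.31 to 7.46 and 7.45 (1.81-fold lower, adjusted p = 0.00215) and ZNF385D fell by 0.45 from a dim mean of 3.46. ZNF385A, whose protein binds p53, was not called (log2 fold change 0.32, adjusted p = 0.13). ZNF280D fell by 0.52. Without either vehicle array the calls of ZNF532, ZNF335, ZNF622, ZNF280D and ZNF385D were lost (adjusted p between 0.0931 and 0.353). The call of ZNF335 was also lost without treated replicate 2, that of ZNF622 without treated replicate 1, and that of ZNF385D without either treated array or with repeated quantile normalization (log2 fold change -0.31).

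The remaining 27 genes of that list were not called. They include ZNF217, an oncogene amplified in several carcinomas (0.29), the paralogs ZNF148 (-0.01) and ZNF281 (0.11), and ZNF410, which activates the remodeler gene CHD4 (0.22). ZNF644, a partner of the H3 lysine 9 methyltransferases EHMT1 and EHMT2, had a log2 fold change of -0.16, and ZNF202 one of -0.44 (adjusted p = 0.0844). The brightest of the 234 genes were ZNF384, at 10.32 and 10.40 in vehicle and 10.49 and 10.60 in treated cells, ZNF148, ZNF593, ZNF131 and ZNF644. Of these 5 only ZNF593, a ribosome biogenesis factor, was called, at 9.39 and 9.56 in vehicle and 9.96 and 10.40 in treated cells (1.63-fold, adjusted p = 0.0219). That call was lost without either vehicle array (adjusted p 0.118 and 0.0522).

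Of 15 tested genes known to encode a SCAN domain, an oligomerization domain shared with transposon-derived capsid sequences, 3 rose and 2 fell, while 12.4% and 15.6% of all genes did. The rises were of ZNF287 (log2 fold change 0.90), ZNF232 (0.50) and ZNF174, and the falls of ZNF165, a testis antigen gene (-0.66), and ZNF483 (-0.47). With either vehicle array left out the list had 1 rise and no falls, and with treated replicate 1 left out it had 4 falls. Among the 8 pseudogenes 2 fell, ZNF204P and ZNF767P, and 3 had higher means in treated cells without being called. Without treated replicate 1 the pseudogenes had 3 falls, and without either vehicle array 1.

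Genes of the machinery through which KRAB zinc finger proteins act were read from a list of 22. TRIM28 itself was at 11.53 and 11.63 in vehicle and 11.49 and 11.75 in treated cells (log2 fold change 0.04, adjusted p = 0.865). Of the 22 genes, 1 rose and 3 fell (4.55% and 13.6%), beside 12.4% and 15.6% of all genes. MORC2, an ATPase recruited by the HUSH complex, rose from 9.07 and 9.08 to 10.10 and 10.04 (1.99-fold, adjusted p = 0.0012). SUV39H1, an H3 lysine 9 methyltransferase, fell from 8.83 and 8.72 to 7.62 and 7.48 (2.34-fold lower, adjusted p = 0.000653). UHRF1, which directs DNMT1 to replicated DNA, fell by 0.58, and SETDB1, the methyltransferase bound by TRIM28, by 0.45. DNMT1, the enzyme that the drug traps, was not called (log2 fold change -0.12, adjusted p = 0.54). UHRF1 and SETDB1 were not called without vehicle replicate 1 (adjusted p 0.0644 and 0.246) or vehicle replicate 2 (0.127 and 0.142), and SETDB1 not without treated replicate 2 (0.0602). With the mean of probe sets UHRF1 had a log2 fold change of -0.30 and was not called, and with repeated quantile normalization SETDB1 had one of -0.37 and was not called. The list had 5 falls without treated replicate 1.

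The labelled cell type was checked on marker genes. Of 8 epithelial markers, KRT8, KRT18, KRT19, EPCAM and CDH1 lay between 10.14 and 13.33 on all arrays, CDX2 between 7.74 and 8.84, and CDX1 and VIL1 between 4.22 and 5.81. EPCAM fell by 0.72, and CDX2 and KRT18 rose by 0.70 and 0.44. The calls of CDX2 and KRT18 were lost without vehicle replicate 1 (adjusted p 0.195 and 0.237) or treated replicate 2 (0.0968 and 0.0691), and that of KRT18 also without vehicle replicate 2 (0.169). Of 13 tested markers of fibroblasts, endothelium and leukocytes, 5 rose (38.5%) and 1 fell (7.69%), beside 12.4% and 15.6% of all genes. The endothelial marker PECAM1 rose 3.46-fold from a mean of 5.09 to 6.88, CD68 2.88-fold, CD14 2.27-fold, CD3E 1.89-fold and COL1A1 1.54-fold, and KDR fell by 0.55 on the log2 scale. The calls of CD3E, COL1A1 and KDR were lost without vehicle replicate 1 (adjusted p 0.0757, 0.0798 and 0.0608), those of COL1A1 and KDR without vehicle replicate 2 (0.094 and 0.206), and that of KDR without treated replicate 2 (0.0557). The median level of the 13 markers was 4.31 and 4.49 on the vehicle arrays and 4.70 and 4.65 on the treated arrays, with PTPRC, the pan-leukocyte marker, at 2.93 to 3.20 and DCN at 2.72 to 3.15. The highest was CD68, which is not restricted to leukocytes, at 8.54 to 10.40. The part of these markers in the results on zinc finger genes was not tested.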

How the data were processed

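Total RNA of HCT116 cells was hybridized to Affymetrix arrays, 1 sample per array and 4 in all. The deposited values are log2 levels, 1 per probe set; the submitters' processing notes name RMA and Affymetrix Expression Console. RMA includes quantile normalization, so a change in total RNA per cell cannot be seen. Software versions and the build behind the probe sets: not given in the sources used here. With 2 arrays a group, their number limits precision.

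Of 33297 probe sets, 19181 had 1 gene symbol in the platform annotation, 2055 had several and 12061 were not listed. For each of 17958 genes the probe set of highest mean over all arrays was used; 12 of the 234 genes studied had more than 1. Chromosome and gene order came from the RefSeq table of GRCh38.p14, matched by gene ID, and promoter windows from RefSeq on GRCh38.p14. Near-identical paralogs (ZNF33A and ZNF33B, ZNF595 and ZNF718, ZNF705A, ZNF717) could share probes, which was not assessed.

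Treated and vehicle arrays were compared by a two-sided limma test (version 3.58.1, R version 4.3.3) without covariates, with Benjamini-Hochberg adjustment over all genes, and the fit was tested on simulated arrays. An exact permutation test of 1 gene cannot go below 0.333 here. Alternatives were leaving out each array, a replicate block, other scalings, a filter on dim genes, the mean of probe sets and a trended prior. The genes, lists and named genes were chosen with earlier results of these data known. Named genes were the 10 highest and 10 lowest called log2 fold changes with separate groups, the 5 brightest genes, all genes of the 3 longest runs, a list of genes of known function, called corepressor genes and DNMT1; other genes of runs and lists, and neighbours, were named after their values were seen. KRAB and finger motifs were not analysed here.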

Additional observations from a re-analysis of the deposited data

Results flagged for a closer look

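Of the probe sets that the comparison did not use, 2 were higher in treated cells by at least 1 on the log2 scale. Examined probe sets lower in treated cells, by up to 1.03, and smaller increases are among the other observations. The second probe set of ZNF75A was higher in treated cells by 1.42 on the log2 scale, at 5.46 and 5.44 in vehicle and 6.97 and 6.77 in treated cells. A probe set shared by ZNF705B, ZNF705G, ZNF705D and ZNF705A was higher by 2.15, at 3.25 and 3.38 in vehicle and 5.81 and 5.11 in treated cells. Neither difference was tested.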

How the results depend on the processing

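With 39 rises and 44 falls among the 234 genes as reported, an adjusted p under 0.01 left 22 and 19, and a 2-fold minimum 13 and 7. With 1 array left out the rises ranged from 19 to 41 and the falls from 19 to 61. In the local runs (17 and 18) they ranged from 9 to 20 and from 9 to 26. At a promoter CpG ratio of at least 0.6 (31 and 25) they ranged from 13 to 31 and from 11 to 39, and below it (5 and 8) from 4 to 8 and from 2 to 9. Corepressor falls (3) ranged from 1 to 5, and chromosomes with more rises than falls (8) from 4 to 8. Among genes with a mean level over 5.52, the CpG-rich rises numbered 20, chromosomes with more rises 5, corepressor falls 5 and the median log2 fold change -0.08. Splitting at the median CpG ratio gave 16 rises and 15 falls above it and 20 and 18 below it. A trended, robust prior gave 5 corepressor falls. The replicate numbers are shared by both groups, but nothing in the labels pairs the samples; same-numbered deviations correlated at 0.27 over genes. With the replicate block 49 genes rose and 61 fell, CpG-rich falls numbered 39 and corepressor falls 5. Other scalings and the mean of probe sets gave 39 to 45 rises and 43 or 44 falls. No named gene that was called changed sign under any alternative. The planned change of the finger motif was not run. Depth does not apply to arrays; signal over background could not be judged without detection calls.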

Other observations

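Among probe sets that name several genes and so belong to no comparison, 3 that carry ZNF658 and ZNF658B were lower in treated cells by 0.90 to 1.03 on the log2 scale (values given without a test). The first went from 6.98 and 7.08 to 6.14 and 5.90. A probe set naming ZNF654 and CGGBP1 went from 7.79 and 7.52 to 8.74 and 8.42. A probe set naming ZNF22, its antisense gene and RASSF4 was higher in treated cells by 0.67 and the second probe set of ZNF384 by 0.84, a difference carried by 1 array (5.47 and 5.51 against 5.65 and 7.02). Both probe sets naming ZNF286A and ZNF286B were within 0.08 of their vehicle means. Of the zinc finger genes with a second probe set, ZNF618 measured 6.50 and 6.52 in vehicle and 5.81 and 5.26 in treated cells on its dimmer one, while the probe set used above gave 8.04 and 8.32 against 7.83 and 7.93.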
